A study of Homo sapiens with 17 samples.

Results

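The 10 genes described here belong to, regulate or report on the transforming growth factor beta (TGF-β) superfamily. They were picked by name and compared between IMR90 ER:RAS fibroblasts without and with active oncogenic RAS. The set holds the ligand genes TGFB1, TGFB2, TGFB3, INHBA, BMP2 and BMP4, the latent TGF-β binding protein gene LTBP2, the inhibitory SMAD gene SMAD7, and the targets THBS1 and CCN2. These are 10 of the 62754 gene rows in each table, and all 10 were among the 19473 genes that passed the filter on low counts.

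IMR90 is an established line of human lung fibroblasts. The cells of every group carried a retroviral vector coding for activated RAS fused to an oestrogen receptor (ER) domain, so that 4-hydroxytamoxifen (4OHT) switches the oncogene on and the cells enter oncogene-induced senescence. The labels do not say whether the infected cells were a pool or a clone. All cells were reverse transfected with siRNA, which was non-targeting (siNT) or against SMARCA4 (siSMARCA4), the gene of a motor subunit of the SWI/SNF chromatin remodeller. RNA was taken on day 7 in every group. DMSO, the solvent of 4OHT, marks the parallel control cells, so no group is an earlier time point. There were 5 libraries of DMSO siNT, 6 of 4OHT siNT and 6 of 4OHT siSMARCA4. No library joined DMSO with siSMARCA4, so an effect of the knockdown in cells without active RAS was not analysed here. Library titles also carry an siRNA number (2 or 4), a replicate number and the letters V or VM, whose meaning is not given in the sources used here. All 4OHT siNT libraries were VM, 2 of the DMSO libraries (2-1V and 2-2V) were V, and so were 3 of the siSMARCA4 libraries (2-3V, 4-2V and 4-3V). V and VM were thus not balanced over the siRNA numbers. Fits on libraries of 1 number alone therefore also differ in V and VM. Nothing states that the libraries came from separate cultures, so the p-values measure the spread between these libraries, which may be technical.

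TGF-β, activin and bone morphogenetic protein (BMP) ligands are secreted dimers that bring type I and type II receptor kinases together. TGF-β and activin receptors phosphorylate SMAD2 and SMAD3, BMP receptors phosphorylate SMAD1, SMAD5 and SMAD9, and both classes then act with SMAD4 in the nucleus. TGF-β is released in a latent complex bound to matrix and has to be activated. In fibroblasts the pathway is known for matrix production, and TGF-β and activin are known secreted factors of senescent cells.

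Libraries held 39.11 to 68.98 × 1e6 counts. Values are counts per 1e6 counts after scaling of library sizes (CPM), and a call is an adjusted p under 0.05 from edgeR's quasi-likelihood test with Benjamini-Hochberg adjustment over all genes tested. SMARCA4 mRNA, the check of the knockdown, was 198 ± 19.3 CPM in DMSO siNT (SD, n = 5), 268 ± 13.2 in 4OHT siNT (SD, n = 6) and 88.0 ± 22.8 in 4OHT siSMARCA4 (SD, n = 6), with no overlap between 4OHT groups. Within the knockdown it was higher in V than in VM libraries (log2 fold change 0.51 ± 0.12 SE, edgeR adjusted p = 0.034). Without siSMARCA4 2-1VM, 2-3VM, 4-2V or 4-2VM in turn this value was 0.34 to 0.58 with an adjusted p of 0.0676 to 0.201. Senescence was marked by higher CDKN1A, CDKN2A and CDKN2B and lower proliferation genes, 5 of 5 measured, led by MKI67 (log2 fold change -5.68 ± 0.32 SE, adjusted p = 3.98e-11). These markers also moved on knockdown. All 3 inhibitor genes fell (CDKN1A -0.42, adjusted p = 0.000448, CDKN2A -0.66, adjusted p = 0.00463, and CDKN2B -0.66, adjusted p = 6.35e-05), and 2 of 5 proliferation genes rose, CDK1 (1.39, adjusted p = 0.0039) and TOP2A (0.68, adjusted p = 0.0134). In bulk RNA, fewer cells of a kind and less RNA per cell cannot be told apart. Summed CPM of 10 fibroblast markers, none of them at 0 in any group, were 23070 to 27770 in DMSO siNT, 13580 to 17700 in 4OHT siNT and 7655 to 11020 in 4OHT siSMARCA4, with 7 of 10 called lower in each step. FAP was the marker that rose on RAS (log2 fold change 0.52), and the largest falls were those of DCN on RAS and COL1A2 on knockdown (-1.49). Markers of epithelium (5 genes) summed to at most 1.29 CPM and of endothelium (5 genes) to at most 10.2 CPM, reached in 4OHT siNT. The endothelial genes VWF and PECAM1 reached means of 3.76 and 0.936 CPM there. All 4 tested endothelial markers rose on RAS, and PECAM1 fell on knockdown. KRT14 was at 0 in every library, as was CDH5 in DMSO siNT. EPCAM, the 1 epithelial marker of 5 that was tested, fell on RAS (-1.17), a call lost with number 4 libraries alone (-0.79, adjusted p = 0.148), and on knockdown (-0.84, adjusted p = 0.0318). The latter call was lost with no filter on low counts, with number 2 or with number 4 libraries alone (-0.86 to -0.76, adjusted p 0.0989 to 0.283), and without 4OHT siNT 4-1VM, 2-3VM or 4-3VM or siSMARCA4 2-1VM, 2-3VM or 4-2VM (-0.82 to -0.73, adjusted p 0.0513 to 0.0752). Of 5 leukocyte markers, CD68 made up most of the sum of 19.98 to 30.43 CPM, and CD3E was at 0 in both siNT groups. The part of these shifts in the results was not tested.

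On induction of RAS (4OHT siNT against DMSO siNT), which asks how senescence changes these genes, BMP2, INHBA and TGFB1 rose and THBS1 and CCN2 fell. That is 5 of 10 called, beside 54.4% of all genes. The direction was higher for 3 of 10, beside 27.0%, and lower for 2 of 10, beside 27.4%. The libraries of the groups did not overlap for the same 5 of 10, beside 39.6% of genes. SMARCA4 knockdown (4OHT siSMARCA4 against 4OHT siNT), which asks what SMARCA4 contributes to the senescent state, called 3 of 10, beside 24.2%. LTBP2 and TGFB1 fell, beside 13.8% of genes called lower, and BMP2 rose, beside 10.4% called higher. For none of the 10 were the libraries of the 2 groups apart, beside 12.0% of genes. Set directly against DMSO siNT, the knockdown cells kept 5 of 10 called, beside 55.1% of genes, with 3 higher (26.5% of genes) and 2 lower (28.6% of genes). These shares are near those of all genes. The 2 comparisons with 4OHT siNT share those 6 libraries, and those with DMSO siNT share 5.

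**Figure D1:**
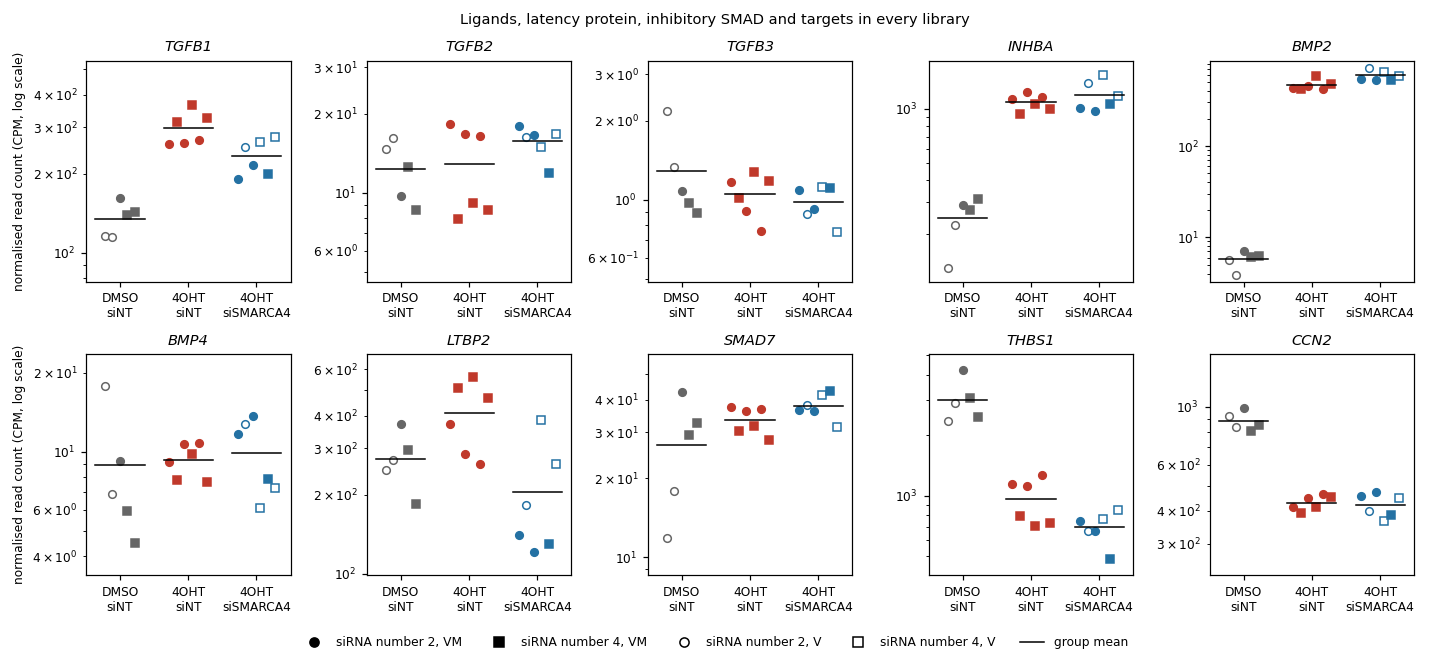
Normalised read count (CPM, log axis) of each gene in all 17 libraries, by group, with circles and squares for siRNA numbers 2 and 4, filled symbols for VM, open symbols for V and a line at the group mean. BMP2 moved from 3.90 to 7.06 CPM in DMSO siNT to 425 to 589 CPM in 4OHT siNT, and TGFB2 split by siRNA number within 4OHT siNT.

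Levels of different genes can be set side by side only per length. Per kb of exon, CCN2 (376 CPM per kb) and THBS1 (327) led in DMSO siNT and their ranges overlapped. TGFB1, LTBP2 and INHBA followed at 41.3, 30.2 and 29.5 CPM per kb with overlapping neighbours. SMAD7 (6.81), BMP4 (2.86), TGFB2 (2.04) and BMP2 (1.63) came next, each overlapping the next, and TGFB3 was last at 0.247. In 4OHT siNT the order was CCN2 (184 CPM per kb), INHBA (132.0), BMP2 (131.8), THBS1 (105) and TGFB1 (91.8), where CCN2 lay apart from the rest and the other 4 overlapped in turn. LTBP2 (45.1), SMAD7 (8.47), BMP4 (3.00), TGFB2 (2.13) and TGFB3 (0.201) followed. BMP2 thus went from rank 9 to rank 3 of the 10, with a range that overlapped that of INHBA. In 4OHT siSMARCA4 the order was CCN2 (180.5), BMP2 (167), INHBA (145), THBS1 (75.9), TGFB1 (71.4), LTBP2 (22.5), SMAD7 (9.57), BMP4 (3.19), TGFB2 (2.60) and TGFB3 (0.187), with the first 3 overlapping in turn.

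BMP2 (ENSG00000125845, GRCh38 chr20:6767686-6780246, plus strand) encodes a BMP ligand known for bone and cartilage formation. It read 5.67, 3.90, 7.06, 6.06 and 6.16 CPM in the 5 DMSO siNT libraries. In 4OHT siNT the lowest was 425, the median 443 and the highest 589 CPM. All 4OHT libraries lay far above all DMSO libraries, and the fold was 80.8 (log2 fold change 6.34 ± 0.16 SE, edgeR adjusted p = 4.63e-15). In 4OHT siSMARCA4 the lowest was 530, the median 563 and the highest 720 CPM, so the highest siNT library (4-2VM) lay inside the knockdown range. The rise on knockdown was 26.8% (log2 fold change 0.34 ± 0.12 SE, edgeR adjusted p = 0.0422). This call did not hold with V or VM as a covariate (adjusted p = 0.0787), with VM (0.21, adjusted p = 0.135), number 2 (0.49, adjusted p = 0.0586) or number 4 libraries alone (0.28, adjusted p = 0.243), or without any of 4OHT siNT 2-1VM, 4-1VM, 2-2VM, 2-3VM or 4-3VM or siSMARCA4 2-3V, 4-2V or 4-3V, where values ran from 0.28 to 0.35 and adjusted p from 0.0521 to 0.107. The 3 VM knockdown libraries read 530 to 542 CPM and the 3 V libraries 585 to 720. Against DMSO siNT the knockdown cells stood at a log2 fold change of 6.68 ± 0.17 SE.

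INHBA (ENSG00000122641, chr7:41667168-41705834, minus strand) encodes the beta A chain, whose dimer is activin A. Its DMSO siNT libraries read 129, 223, 288, 270 and 313 CPM, the 2 lowest being V libraries. In 4OHT siNT it was 935 at the lowest, 1103 at the median and 1250 at the highest. All 4OHT libraries were above all DMSO libraries (4.47-fold, log2 fold change 2.16 ± 0.19 SE, edgeR adjusted p = 1.4e-08). In 4OHT siSMARCA4 the lowest was 973, the median 1126 and the highest 1556 CPM, again overlapping with siNT (0.13 ± 0.17 SE on the log2 scale, 95% interval -0.22 to 0.48, adjusted p = 0.621). V knockdown libraries (1184 to 1556 CPM) read above the VM ones (973 to 1068 CPM), a difference that did not pass the test (0.42 ± 0.17 SE, edgeR adjusted p = 0.201). Its antisense neighbour INHBA-AS1 rose on RAS as well (log2 fold change 1.38 ± 0.28 SE, adjusted p = 0.000367), and the counting was strand-specific. The INHBA promoter table entry, from RefSeq on GRCh38.p14 like the 2 sequences further on, is shown because INHBA was the activin gene that rose. These are the 250 bases before its start, chr7:41703091-41703340, minus strand, and no searched motif lay in them.

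INHBA: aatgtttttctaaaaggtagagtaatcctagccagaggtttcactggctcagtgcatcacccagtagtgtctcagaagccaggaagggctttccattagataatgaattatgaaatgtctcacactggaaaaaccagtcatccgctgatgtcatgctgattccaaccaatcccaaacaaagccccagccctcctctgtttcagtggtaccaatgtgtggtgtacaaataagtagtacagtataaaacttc

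TGFB1 (ENSG00000105329, chr19:41301587-41353922, minus strand) encodes the main TGF-β isoform and was the 1 of 3 isoform genes called on RAS. It read 116, 114, 161, 140 and 143 CPM in DMSO siNT, and 261 at the lowest, 292 at the median and 366 at the highest in 4OHT siNT. The groups did not overlap, and it rose 2.22-fold (log2 fold change 1.152 ± 0.124 SE, edgeR adjusted p = 2.48e-07). In 4OHT siSMARCA4 it read 191 at the lowest, 234 at the median and 276 at the highest, above all DMSO libraries and overlapping with siNT. The fall on knockdown was 22.2% (log2 fold change -0.36 ± 0.12 SE, edgeR adjusted p = 0.0293). Significance was lost without any of 4OHT siNT 4-1VM, 4-2VM or 4-3VM or siSMARCA4 2-1VM, 2-3VM or 4-2VM (-0.35 to -0.30, adjusted p 0.0584 to 0.0767), and with no filter on low counts (adjusted p = 0.0708). It was also lost with number 2 libraries alone (-0.22, adjusted p = 0.259) and with number 4 alone (-0.41, adjusted p = 0.0881), and was -0.55 (adjusted p = 0.00278) with VM libraries alone. V knockdown libraries read 252 to 276 CPM and VM libraries 191 to 217 CPM (V against VM 0.35 ± 0.12 SE, edgeR adjusted p = 0.117). Against DMSO siNT it remained higher (0.79 ± 0.12 SE, adjusted p = 2.10e-05).

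TGFB2 (ENSG00000092969, chr1:218345336-218444619, plus strand) encodes the second isoform and read 14.7, 16.2, 9.73, 12.5 and 8.61 CPM in DMSO siNT. In 4OHT siNT it ran from 7.95 to 18.3 CPM around a median of 12.8, and in 4OHT siSMARCA4 from 11.9 to 18.0 around 16.5. Neither step passed the test, with log2 fold changes of 0.061 ± 0.22 SE (adjusted p = 0.839) and 0.29 ± 0.21 SE (adjusted p = 0.339). With number 4 libraries alone the second passed (0.80, adjusted p = 0.0285). The spread within 4OHT siNT followed the control siRNA number. The 3 siNT 2 libraries read 18.3, 16.7 and 16.5 CPM, and the 3 siNT 4 libraries 7.95, 9.16 and 8.58, with no overlap. In DMSO siNT the same numbers did overlap, with 9.73 to 16.2 CPM for siNT 2 and 8.61 to 12.5 CPM for siNT 4. The comparison within 4OHT siNT was added after the values were seen. It gave a log2 fold change of -1.01 ± 0.18 SE for siNT 4 against siNT 2 (edgeR adjusted p = 0.0103), where 3.73% of genes were called and TGFB2 was the 1 member. It was lost without siNT 4-1VM, 4-2VM or 2-3VM (-1.05 to -0.95, adjusted p 0.0617 to 0.0694). Against DMSO siNT, TGFB2 in the knockdown stood at 0.35 (edgeR adjusted p = 0.189), and at 0.42 (adjusted p = 0.0379) with siRNA number as a covariate.

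TGFB3 (ENSG00000119699, chr14:75958097-75983011, minus strand), the third isoform, lay between 0.754 and 2.18 CPM in all libraries and passed neither test (-0.29 ± 0.22 SE on RAS, adjusted p = 0.272, and -0.11 ± 0.21 SE on knockdown, adjusted p = 0.77). Its highest library was DMSO siNT 2-1V. BMP4 (ENSG00000125378, chr14:53949736-53958761, minus strand), a BMP ligand close to BMP2, read 4.48 to 17.8 CPM in DMSO siNT, 7.65 to 10.8 in 4OHT siNT and 6.10 to 13.7 in 4OHT siSMARCA4. It passed neither test (0.068 ± 0.28 SE, 95% interval -0.53 to 0.66, adjusted p = 0.861, and 0.087 ± 0.27 SE, 95% interval -0.48 to 0.66, adjusted p = 0.856). Its highest library, too, was DMSO siNT 2-1V. With number 4 libraries alone BMP4 rose on RAS (0.64, adjusted p = 0.0231), and with number 2 alone it was at -0.19 (adjusted p = 0.6). Against DMSO siNT, BMP4 in the knockdown stood at 0.15 (adjusted p = 0.674), and passed the test without DMSO siNT 2-1V (0.56, adjusted p = 0.0467) and with VM libraries alone (0.76, adjusted p = 0.0224).

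LTBP2 (ENSG00000119681, chr14:74498183-74612378, minus strand) encodes a matrix protein of the latent TGF-β binding protein family and was the member with the largest change on knockdown. It read 249, 271, 370.5, 297 and 184 CPM in DMSO siNT. In 4OHT siNT it ran from 262 to 561 CPM with a median of 420, and siNT 2 libraries (262 to 373) lay below siNT 4 libraries (466.2 to 560.7). That difference did not pass the test (log2 fold change 0.73 ± 0.29 SE, edgeR adjusted p = 0.161), but did with no filter on low counts (0.75, adjusted p = 1.48e-07). The step on RAS was 0.58 ± 0.28 SE (log2, edgeR adjusted p = 0.0939), and passed the test without siSMARCA4 4-2V (0.58, adjusted p = 0.0431) and with V or VM as a covariate (0.77, adjusted p = 0.0246). It also passed with only the 2 groups fitted (0.58, adjusted p = 0.0354) and with the replicate block (0.80, adjusted p = 0.0384). With number 2 libraries alone it was 0.016 (adjusted p = 0.949), with means of 297 CPM in DMSO siNT and 307 CPM in 4OHT siNT, and with number 4 alone 1.05 (adjusted p = 0.0403), with means of 240 and 512 CPM. The difference between these steps was not tested. Number 4 had only 2 DMSO siNT libraries, at 184 and 297 CPM. In 4OHT siSMARCA4 LTBP2 ran from 121 to 386 CPM with a median of 161.5. Of these 6 libraries, 4 lay below all siNT libraries, 4-3V at 263 CPM lay at their lower edge and 4-2V at 386 CPM lay among them. The fall was 2.01-fold (log2 fold change -1.01 ± 0.27 SE, edgeR adjusted p = 0.0118). With number 4 libraries alone it did not pass (-0.95, adjusted p = 0.101), and with VM libraries alone it was -1.63 (adjusted p = 0.000533). VM knockdown libraries read 121 to 141 CPM, V libraries 182 to 386 CPM (V against VM 1.06 ± 0.29 SE, edgeR adjusted p = 0.0615, and 1.28, adjusted p = 0.0179, without siSMARCA4 2-3V, and 1.08, adjusted p = 0.00837, in DESeq2). These V libraries were those with more SMARCA4 mRNA, whose part in the result was not tested. Against DMSO siNT, LTBP2 in the knockdown stood at -0.43 (adjusted p = 0.211), and at -0.71 (adjusted p = 0.0192) without siSMARCA4 4-2V. With VM libraries alone it was -1.12 (adjusted p = 0.0047), with number 2 alone -1.0 (adjusted p = 0.00122) and with number 4 alone 0.099 (adjusted p = 0.847).

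SMAD7 (ENSG00000101665, chr18:48919853-48950965, minus strand) encodes the inhibitory SMAD that TGF-β signalling itself induces. It read 11.9, 17.9, 42.8, 29.2 and 32.6 CPM in DMSO siNT, the 2 low values being the V libraries. In 4OHT siNT it ran from 27.99 to 37.4 CPM around a median of 33.9, and in 4OHT siSMARCA4 from 31.4 to 42.95 around 37.2. Neither step passed the test (0.31 ± 0.22 SE on RAS, adjusted p = 0.242, and 0.18 ± 0.21 SE on knockdown, adjusted p = 0.584). The first was 0.51 (adjusted p = 0.0464) without DMSO siNT 2-2VM, the highest library, and -0.086 with VM libraries alone. Within DMSO siNT, V against VM gave -1.24 ± 0.195 SE (edgeR adjusted p = 0.00919), a comparison added after the values were seen in which 0.693% of genes were called. Without DMSO siNT 2-1V it was -0.97 with an adjusted p of 0.603. Against DMSO siNT, SMAD7 in the knockdown stood at 0.49 ± 0.22 SE (edgeR adjusted p = 0.0657). It passed with DESeq2 or with V or VM as a covariate (0.49 to 0.64, adjusted p 0.00821 to 0.0486). Leaving out DMSO siNT 2-2VM or 4-3VM gave 0.57 to 0.69 (adjusted p 0.00937 to 0.0482).

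THBS1 (ENSG00000137801, chr15:39581079-39599466, plus strand) encodes thrombospondin-1, a TGF-β target that can also activate latent TGF-β. Its libraries read 2361, 2884, 4238, 3051 and 2457 CPM in DMSO siNT. In 4OHT siNT the lowest was 708, the median 953 and the highest 1267 CPM, below all DMSO libraries (3.13-fold lower, log2 fold change -1.64 ± 0.18 SE, edgeR adjusted p = 3.66e-07). In 4OHT siSMARCA4 it ran from 483 to 844 CPM around 707, within reach of siNT 4 (708 to 790) and below siNT 2 (1116 to 1267). The step on knockdown was -0.47 ± 0.17 SE (edgeR adjusted p = 0.0576), and passed the test without DMSO siNT 2-2VM, 4OHT siNT 4-2VM or 4-3VM, or siSMARCA4 4-3V (-0.54 to -0.46, adjusted p 0.0366 to 0.0415), by DESeq2 (adjusted p = 0.03545) and with only the 2 groups fitted (adjusted p = 0.049). With number 2 libraries alone it was -0.72 (adjusted p = 0.0141) and with number 4 alone -0.061 (adjusted p = 0.873). THBS1-IT1, on the same strand inside THBS1, fell at both steps (-2.24 ± 0.24 SE and -0.83 ± 0.24 SE). Its reads may be shared with THBS1, so both are uncertain to that extent, and its second call was lost without 4OHT siNT 2-3VM (-0.64, adjusted p = 0.0517), with V or VM as a covariate (-0.65, adjusted p = 0.0707), and with VM (-0.68, adjusted p = 0.136) or number 4 libraries alone (-0.55, adjusted p = 0.219).

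CCN2 (ENSG00000118523, chr6:131948176-131951372, minus strand) encodes connective tissue growth factor, a target of both TGF-β and the YAP/TEAD factors of the Hippo pathway. It read 921, 836, 986, 807 and 851 CPM in DMSO siNT. In 4OHT siNT the lowest was 392.4, the median 431.9 and the highest 462.4 CPM, below every DMSO library (2.04-fold lower, log2 fold change -1.03 ± 0.080 SE, edgeR adjusted p = 2.94e-09). In 4OHT siSMARCA4 it ran from 367 to 471 CPM around 425.5, over the same range (-0.029 ± 0.076 SE, 95% interval -0.19 to 0.13, adjusted p = 0.83). Its SE was the smallest of the 10 genes.

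**Figure D2:**
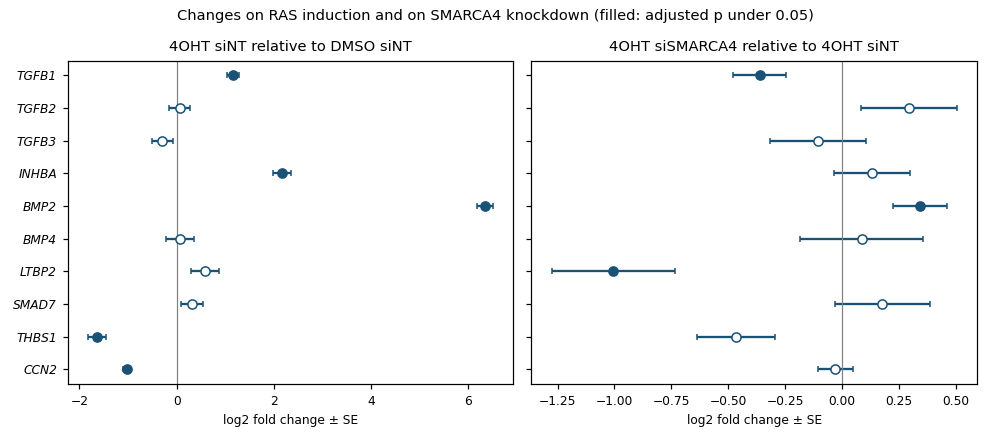
Log2 fold change ± SE of the 10 genes on RAS induction (left) and SMARCA4 knockdown (right, other axis range), filled where the adjusted p was under 0.05. BMP2 stands at 6.34 on the left and LTBP2 at -1.01 on the right.

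The 250 bases before the starts of CCN2 (chr6:131951373-131951622, minus strand) and THBS1 (chr15:39580829-39581078, plus strand) are shown because these targets fell together. Capitals mark GGAATG, the core that TEAD factors bind. It was searched on both strands, beside the SMAD palindrome GTCTAGAC, the CAGA box CAGACA, the AP-1 site TGACTCA and the CRE TGACGTCA, from 250 bases before to 50 after each start.

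CCN2: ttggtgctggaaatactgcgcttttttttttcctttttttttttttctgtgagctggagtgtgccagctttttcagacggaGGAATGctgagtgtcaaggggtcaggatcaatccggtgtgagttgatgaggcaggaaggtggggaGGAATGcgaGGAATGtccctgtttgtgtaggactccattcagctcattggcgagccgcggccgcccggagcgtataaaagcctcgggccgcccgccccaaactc

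THBS1: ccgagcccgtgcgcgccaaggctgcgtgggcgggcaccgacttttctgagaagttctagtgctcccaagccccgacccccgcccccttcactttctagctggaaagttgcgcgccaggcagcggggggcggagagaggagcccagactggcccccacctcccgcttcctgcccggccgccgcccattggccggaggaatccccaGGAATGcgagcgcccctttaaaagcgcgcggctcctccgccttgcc

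CCN2 held GGAATG 3 times, beginning 169, 104 and 95 bases before its start, and THBS1 held it 46 bases before. Among all 35116 promoters searched, 14.0% held it and 0.128% held it 3 or more times. TGFB2 (185 bases before) and 1 of 3 BMP4 entries (1 base before) held it too, and neither of these genes was called. CAGACA, in 16.9% of promoters, lay in TGFB2, INHBA (after the start) and 1 BMP4 entry. The palindrome (0.202% of promoters), the AP-1 site (4.95%) and the CRE (1.85%) lay in none of the 14 entries that 9 of the members had. BMP2 had none. A match describes letters and is not a binding site.

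The 2 siRNA numbers give separate estimates of the knockdown, although each is set against control siRNAs of its own number. In the knockdown and in DMSO siNT the numbers also hold unequal shares of V libraries. A difference between numbers there can also be one between V and VM. With number 2, 17.1% of genes and 2 of 10 members were called, LTBP2 (-1.02 ± 0.29 SE, adjusted p = 0.0233) and THBS1 (-0.74 ± 0.19 SE, adjusted p = 0.0158), both lower. With number 4, 13.6% of genes and 3 of 10 members were called, LTBP2 lower (-0.97 ± 0.29 SE, adjusted p = 0.0365), TGFB1 lower (-0.44 ± 0.14 SE, adjusted p = 0.0438) and TGFB2 higher (0.77 ± 0.18 SE, adjusted p = 0.00996). LTBP2 was the member called with both numbers in this joint fit. When number 4 libraries were fitted alone it was not called, as given earlier, and neither was TGFB1 (-0.41, adjusted p = 0.0881). SMARCA4 itself fell by 1.61 and 1.57 on the log2 scale. The test of the difference between numbers called 0 of 10 members in edgeR and in DESeq2, beside 0.545% of genes in edgeR. In edgeR 2895 of 20931 genes had an unadjusted p under 0.05, and so did 2 members. These were TGFB2 (number 2 minus number 4 -0.76 ± 0.25 SE, edgeR adjusted p = 0.176) and THBS1 (-0.65 ± 0.27 SE, edgeR adjusted p = 0.303). Both genes had close levels in the 2 knockdowns, with means of 16.99 and 14.52 CPM for TGFB2 and 693 and 697 CPM for THBS1, while the control means were 17.17 and 8.56 CPM, and 1174 and 744 CPM. Within siSMARCA4, number 4 against 2 called 0.201% of genes in edgeR and 0 of 10 members in edgeR and DESeq2. Of 20931 genes, 2741 had an unadjusted p under 0.05 in edgeR, as did 2 members. V against VM within siSMARCA4 called 3.0% of genes and 0 of 10 members in edgeR, and 1 member in DESeq2. At an unadjusted p under 0.05 there were 3557 of 20931 genes and 3 members in edgeR.

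Counts on repeats inside introns of these genes give a separate reading, since spliced mRNA leaves them out. Repeats of both strands were summed. Reads of antisense or overlapping transcripts, such as INHBA-AS1 at INHBA, can therefore be among them. Of the members, 8 had 50 or more such counts over all libraries. BMP4 and CCN2 did not. Against the library totals, 3 of 16 tests were called (exact two-sided permutation test of the difference in means, Benjamini-Hochberg adjusted over the 16), all on RAS. BMP2 rose from 0.0117 ± 0.0107 (SD, n = 5) to 0.964 ± 0.186 counts per 1e6 (SD, n = 6). INHBA rose from 0.118 ± 0.0891 to 0.418 ± 0.121, and LTBP2 from 2.19 ± 0.308 to 3.72 ± 0.368, each with exact p = 0.00433, the smallest this design allows, and adjusted p = 0.0231. With any 1 DMSO library left out none of the 3 passed, since the smallest adjusted p was then 0.0508, and the differences were 0.95 to 0.955, 0.271 to 0.326 and 1.44 to 1.65 per 1e6. TGFB1 (2.19 ± 0.773 to 3.15 ± 0.401, exact p = 0.039, adjusted p = 0.0891) and THBS1 (1.25 ± 0.328 to 0.58 ± 0.197, exact p = 0.013, adjusted p = 0.0519) lay on the sides of their mRNA. On knockdown LTBP2 read 2.82 ± 0.739 (exact p = 0.0281) and THBS1 0.28 ± 0.199 (exact p = 0.026), both at an adjusted p of 0.075. TGFB1 read 3.48 ± 0.953, higher than in 4OHT siNT where its mRNA was lower, and BMP2 0.891 ± 0.49, lower where its mRNA was higher, and neither passed the test (adjusted p = 0.675 and 0.938). THBS1 passed the test without siSMARCA4 2-3VM and LTBP2 without 4-2V (both adjusted p = 0.0346). On RAS, THBS1 passed without 4OHT siNT 2-3VM (adjusted p = 0.0318) or without siSMARCA4 2-3VM or 4-2V (adjusted p = 0.0416). Relative to all counts on intronic repeats in place of library totals, TGFB1 (adjusted p = 0.0495) and THBS1 on RAS and LTBP2 and THBS1 on knockdown (each adjusted p = 0.0139) passed. On that scale TGFB1 on knockdown was lower, the side of its mRNA, by -52.3 per 1e6 intronic repeat counts, and did not pass. Over all genes, counts on intronic repeats were 7369 ± 1757, 7571 ± 435 and 9656 ± 902 per 1e6 in the 3 groups, higher on knockdown (exact permutation p = 0.00433). The means of LTBP2 and THBS1 lay on the other side.

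**Figure D3:**
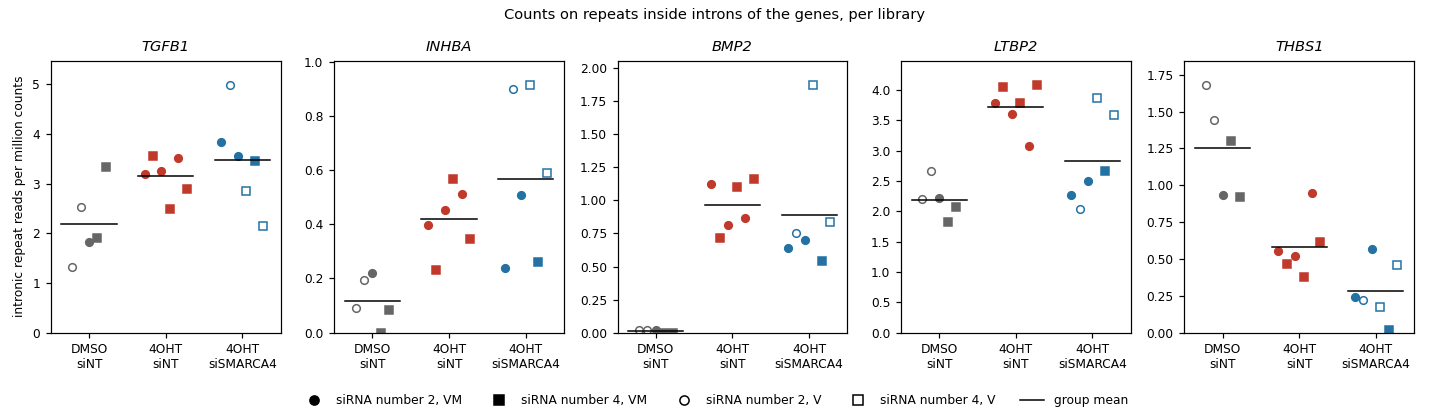
Counts on repeats inside introns of 5 genes per 1e6 library counts, in each library, with group means as lines and symbols as in the plot of all genes. BMP2 goes from a mean of 0.0117 in DMSO siNT to 0.964 in 4OHT siNT, and LTBP2 lies at means of 2.19, 3.72 and 2.82.

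The other genes of the pathway are given by lists, each with the count called and the median log2 fold change of its tested genes. The median over all genes was 0.0039 on RAS and -0.024 on knockdown. Of all genes, 54.4% were called on RAS, 27.0% higher and 27.4% lower. On knockdown 24.2% were called, 10.4% higher and 13.8% lower. The counts of each list stand beside these shares. Of 26 other ligands 13 were tested. On RAS 6 rose and 2 fell (median 0.50). GDF15, a stress-induced member of the superfamily, went from 66.0 to 1361 CPM (4.37 ± 0.16 SE), and GDF5, a cartilage and joint ligand, fell from 17.7 to 0.866 CPM (-4.36 ± 0.27 SE). BMP7 had the largest fitted rise, from a mean of 0.00387 to 0.558 CPM, too low for a fold. On knockdown 2 rose and 4 fell (median 0.095). BMP6 rose from 2.80 to 8.76 CPM (1.64 ± 0.33 SE, adjusted p = 0.00164), and INHBE, a liver activin chain, fell from 0.282 to 0.103 CPM (adjusted p = 0.00529), a call lost with VM (-1.14, adjusted p = 0.0657) or number 2 libraries alone (-0.97, adjusted p = 0.208).

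Of 12 extracellular inhibitors tested of 20, 10 fell and 1 rose on RAS, with a median of -1.25. Decorin (DCN), a proteoglycan that binds TGF-β, was at 549 ± 142 CPM in DMSO siNT (SD, n = 5) and at 15.8 ± 0.935 CPM in 4OHT siNT (SD, n = 6). The activin antagonist follistatin (FST) fell from 162 to 23.4 CPM, and the BMP antagonists noggin (NOG) from 15.1 to 3.79 CPM and gremlin (GREM1) from 1413 to 577 CPM. NBL1, a BMP antagonist of the DAN family, rose (0.94 ± 0.18 SE). On knockdown 2 rose and 2 fell (median 0.13). CHRDL1 fell to near 0 (0.0682 to 0.0130 CPM, adjusted p = 0.0267), lost without 4OHT siNT 2-2VM or siSMARCA4 2-3V or 4-2VM (-2.08 to -1.69, adjusted p 0.0538 to 0.0927) and with VM (-1.68, adjusted p = 0.183), number 2 (-2.10, adjusted p = 0.105) or number 4 libraries alone (-2.52, adjusted p = 0.182).

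Of 15 receptors and co-receptors tested, 3 rose and 6 fell on RAS (median -0.16), led by ACVRL1, a type I receptor, which rose from 20.6 to 89.3 CPM (2.12 ± 0.16 SE), and by the BMP co-receptor RGMA (-1.99 ± 0.54 SE). On knockdown 3 rose and 4 fell (median -0.022). The TGF-β co-receptor TGFBR3 rose (0.96 ± 0.21 SE, adjusted p = 0.00259) and endoglin (ENG) fell (-0.55 ± 0.11 SE, adjusted p = 0.00195). Of 18 SMADs and regulators 5 rose and 8 fell on RAS (median 0.013). SMAD1 rose (1.69 ± 0.24 SE) and SMAD9, which serves the same receptors, fell (-3.43 ± 0.22 SE). On knockdown SKIL rose and SKI fell, both co-repressors of SMADs (0.49 ± 0.15 SE, adjusted p = 0.0261, and -0.34 ± 0.10 SE, adjusted p = 0.0213), out of 18 (median -0.065). SKIL lost its call without 4OHT siNT 4-1VM, 4-2VM or 4-3VM or siSMARCA4 2-1VM or 4-3V (0.42 to 0.46, adjusted p 0.057 to 0.0641), and SKI without 4OHT siNT 2-1VM or siSMARCA4 2-3V or 2-3VM (-0.31 to -0.29, adjusted p 0.0528 to 0.0573). SKIL was also lost with VM (0.45, adjusted p = 0.0542) or number 2 libraries alone (0.35, adjusted p = 0.219), and SKI with no filter on low counts (-0.30, adjusted p = 0.0584).

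Among genes of latency and activation, 15 tested of 18, 8 fell and 2 rose on knockdown (median -0.34). On RAS 8 rose and 4 fell (median 0.43). Both steps use the same 4OHT siNT libraries, so opposite signs are partly built in. Set directly against DMSO siNT, the knockdown cells had 5 called higher and 4 lower (median -0.18), beside 26.5% and 28.6% of all genes. LRRC32 (GARP), which holds latent TGF-β at the cell surface, read 23.3 ± 8.03 CPM in DMSO siNT (SD, n = 5), 56.8 ± 5.86 in 4OHT siNT (SD, n = 6) and 17.8 ± 12.0 in 4OHT siSMARCA4 (SD, n = 6), a log2 fold change on knockdown of -1.67 ± 0.34 SE (adjusted p = 0.00201). Fibrillin-2 (FBN2) fell from 87.0 to 31.1 CPM and the matrix glycoprotein EMILIN1 from 393 to 195 CPM. LTBP2 itself fell with them. The integrin chain ITGB3 rose on knockdown (0.69 ± 0.13 SE, adjusted p = 0.00104), and NRROS, a relative of LRRC32, rose most on RAS (2.60 ± 0.14 SE). LTBP4 fell most on RAS (-0.98 ± 0.22 SE), with overlapping libraries, and did not pass with number 4 libraries alone (-0.22, adjusted p = 0.309).

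Of 33 TGF-β targets, 12 rose and 13 fell on RAS, with a median of -0.028. The cell cycle inhibitor CDKN2B rose most (4.01 ± 0.11 SE) and elastin (ELN) fell most, from 9.07 to 0.101 CPM. The contractile genes TAGLN (-2.97 ± 0.215 SE) and ACTA2 (-1.66 ± 0.17 SE) fell. Other targets lay higher in 4OHT siNT, without overlap of libraries. Means of PMEPA1 were 20.3 CPM in DMSO siNT and 73.7 CPM in 4OHT siNT, and those of POSTN 187 and 639 CPM. On knockdown 12 fell and 1 rose (median -0.29), with TNS1, a focal adhesion gene, lowest (-1.74 ± 0.335 SE, adjusted p = 0.00121). COL1A1 fell by 1.46 and FN1 by 1.03 on the log2 scale, beside the fall of summed fibroblast markers given earlier, with which the list shares collagen genes. CNN1, which rose (0.41 ± 0.14 SE, adjusted p = 0.039), lost its call without 4OHT siNT 2-1VM, 2-2VM, 4-2VM, 2-3VM or 4-3VM or siSMARCA4 2-1VM or 2-3VM (0.31 to 0.42, adjusted p 0.0574 to 0.108).

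Most BMP targets tested were lower on RAS, where BMP2 was higher, and a link between them was not tested. Of 10 tested of 11, 6 fell and 3 rose on RAS (median -1.72), and those that fell include ID1, ID2 and ID3, the classical transcriptional readouts of BMP receptors. ID1 was at 98.8 ± 43.8 CPM in DMSO siNT (SD, n = 5) and at 34.5 ± 14.1 CPM in 4OHT siNT (SD, n = 6), with overlapping libraries. ID2 went from 99.6 to 7.51 CPM and ID3 from 98.4 to 26.0 CPM, while BMP2 rose 80.8-fold. The lower levels of ID1 and ID3 stayed below DMSO siNT on the mean in the knockdown, at 54.3 and 34.2 CPM. The largest fall was ATOH8 (-3.73 ± 0.39 SE) and the largest rise HEY1 (3.46 ± 0.27 SE), which Notch also controls. The means of MSX1 and MSX2, of the same list, were higher in 4OHT siNT than in DMSO siNT. MSX1 went from 7.84 to 12.1 CPM, without overlap of libraries, and MSX2 from 4.39 to 8.42 CPM, with overlap. On knockdown 1 of 10 was called (median 0.31). This was ID2, which rose from 7.51 to 12.0 CPM (adjusted p = 0.0463), and the call was lost without DMSO siNT 4-2VM, 4OHT siNT 2-1VM, 4-1VM, 2-2VM, 4-2VM or 4-3VM, or siSMARCA4 2-1VM, 2-3V, 2-3VM or 4-2VM (0.59 to 0.70, adjusted p 0.0595 to 0.107). It was also lost with number 2 (0.65, adjusted p = 0.157) or number 4 libraries alone (0.82, adjusted p = 0.121).

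YAP/TEAD targets, a list without CCN2, mostly went the way of CCN2 on RAS, with 13 of 21 lower and 3 higher (median -0.66). Its close relative CCN1 fell from 686 to 239 CPM (-1.52 ± 0.081 SE), ANKRD1 had the largest fall (-2.47 ± 0.39 SE) and FJX1 the largest rise (1.85 ± 0.11 SE). On knockdown 8 of 21 fell and none rose (median -0.21), with MYOF lowest (-0.75 ± 0.14 SE, adjusted p = 0.000816) and CCN1 at -0.33 ± 0.077 SE (adjusted p = 0.00464), a call lost with VM, number 2 or number 4 libraries alone (-0.38 to -0.19, adjusted p 0.0808 to 0.229). The CCN and thrombospondin relatives showed 4 of 7 lower on each step, led by THBS4 on RAS (-2.20 ± 0.38 SE) and CCN3 on knockdown (-1.30 ± 0.12 SE, adjusted p = 1.56e-06), and THBS2 fell from 4OHT siNT to 4OHT siSMARCA4 by 1.14 on the log2 scale. Of 5 transcripts that overlap members, 3 were called on RAS and 1 on knockdown.

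Fits on fewer libraries ended further calls among these genes. With number 4 libraries alone, the knockdown falls of LRRC32 (-1.23, adjusted p = 0.0781), FBN2 (-1.27, adjusted p = 0.0509), THBS2 (-0.69, adjusted p = 0.0959), FN1 (-1.18, adjusted p = 0.0792), MYOF (-0.62, adjusted p = 0.0856) and ENG (-0.31, adjusted p = 0.181) and the rise of TGFBR3 (0.92, adjusted p = 0.0576) did not pass. The same held there for the rises of CNN1 (0.12, adjusted p = 0.573) and CDK1 (1.32, adjusted p = 0.093) and the falls of SKI (-0.10, adjusted p = 0.622) and PECAM1 (-0.99, adjusted p = 0.122). RGMA on RAS was lost with VM libraries alone (-1.37, adjusted p = 0.0714).

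**Figure D4:**
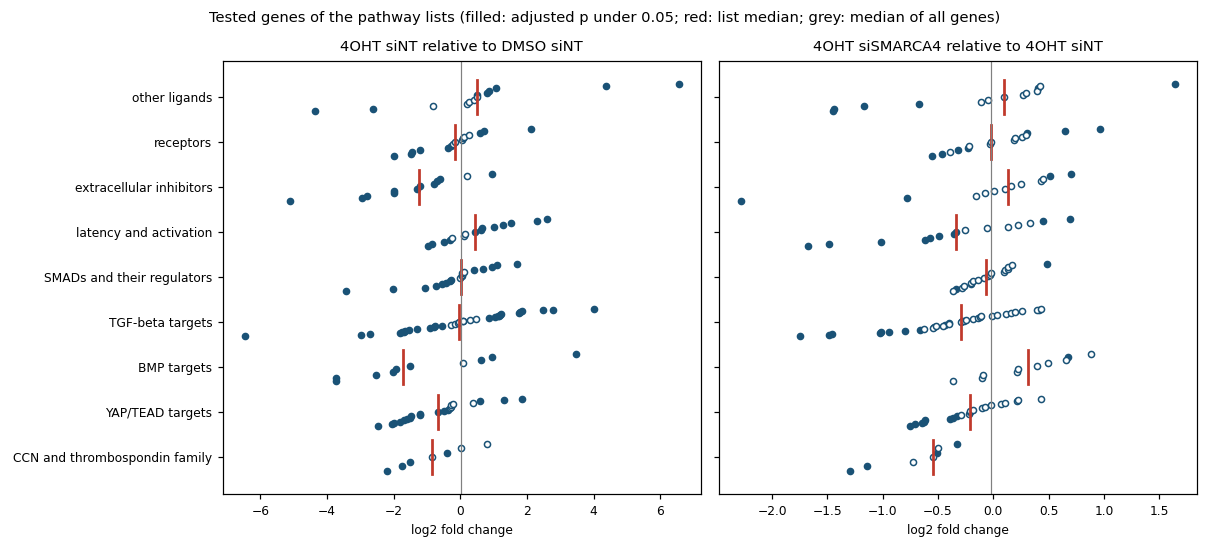
Log2 fold change of every tested gene of 9 lists on RAS induction (left) and SMARCA4 knockdown (right, other axis range), filled where the adjusted p was under 0.05, with the list median in red and the median of all genes in grey. Extracellular inhibitors and BMP targets have medians of -1.25 and -1.72 on RAS, and latency genes go from 0.43 to -0.34.

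For 9 of the members, the gene whose log2 CPM was most like theirs over the 17 libraries, among 19472 others, was PLAU for BMP2 (Pearson r 0.996), SERPINB2 for INHBA (0.986), C2orf27A for TGFB2 (0.852), RBM15B for TGFB3 (0.811), SLC9A9 for BMP4 (0.84), TSC2 for LTBP2 (0.96), HMGA2 for SMAD7 (0.885), EDIL3 for THBS1 (0.986) and MBNL1-AS1 for CCN2 (0.988). Among the members the closest were BMP2 with INHBA (0.965) and THBS1 with CCN2 (0.934). These values largely carry the step between DMSO and 4OHT, and all genes were read in the same libraries, so they are a description. With group means removed, BMP2 with INHBA was at 0.37 and THBS1 with CCN2 at 0.39. The highest member pairs were then INHBA with SMAD7 (0.81), TGFB1 with BMP2 (0.74) and TGFB1 with LTBP2 (0.72).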

How the data were processed

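Paired-end sequencing of poly(A) RNA, with strand kept, covered 17 libraries. The authors deposited expected counts per gene and repeat locus, written as whole numbers, after Cutadapt 4.7, HISAT2 2.2.1 on GRCh38 and TElocal in its multi-mapping mode, which divides a read pair among its positions, so genes with near copies are less certain. Library totals were 39.11 to 68.98 × 1e6, and a count of a gene has counting error only beside the spread given.

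Genes and summed repeat subfamilies were kept by filterByExpr (minimum count 10, minimum total 15), scaled by TMM and fitted with 1 term per group over all 17 libraries (edgeR 4.0.16, R 4.3.3). DESeq2 1.42.0 was an alternative. SE is the absolute log2 fold change over the square root of F. Other alternatives were other scaling, no filter, covariates, subsets, a replicate block and leaving out each library. Gene positions came from GENCODE 44, later than the annotation counted, and promoters from RefSeq. The genes and lists were chosen with earlier results of these data known. Named were the 10 genes, SMARCA4, the called gene with the largest rise and fall per list and step, and the closest gene to each member, of which a few are not reported here. GDF15, FST, NOG, GREM1, ID1, ID2 (on RAS), ID3, MSX1, MSX2, CCN1, TAGLN, ACTA2, PMEPA1, POSTN, FBN2, EMILIN1, COL1A1, FN1, THBS2, EDN1 and the named control markers were chosen after their values were seen, as were the comparisons of siRNA numbers within a group and of V with VM. Same-tagged libraries did not deviate together in every pair (correlations of -0.07 to 0.57), and the main fit holds no pairing. Libraries of a tag were averaged over siRNA numbers for this check. It therefore cannot tell whether libraries with the same number and tag are paired.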

Additional observations from a re-analysis of the deposited data

Results flagged for a closer look

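BMP2 in the library 4OHT siNT 4-2VM, at 589 CPM, stood apart from the other 5 libraries of its group, which read 425 to 477 CPM, with a gap of 0.684 of the group's whole range, above Dixon's limit. This was 1 of 30 groups examined, and chance gives about 1 in 20. Without this library BMP2 kept its call on knockdown.

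EDN1, the endothelin-1 gene among the TGF-β targets, had knockdown effects that differed between the siRNA numbers (number 2 minus number 4 -1.31 ± 0.26 SE on the log2 scale, edgeR adjusted p = 0.0353). It fell with number 2 (-0.69 ± 0.18 SE, adjusted p = 0.0156) and rose with number 4 (0.62 ± 0.18 SE, adjusted p = 0.0333). Each number was set against its own controls. EDN1 ran from 5.27 to 12.3 CPM over the 4OHT siNT libraries and from 6.86 to 10.6 CPM over 4OHT siSMARCA4. The part of the controls in the opposite signs was not tested. The difference did not pass the test without any of 4OHT siNT 4-1VM, 2-2VM, 4-2VM or 2-3VM or siSMARCA4 2-1VM, 2-3V, 2-3VM or 4-3V (-1.34 to -1.21, adjusted p 0.0536 to 0.139). EDN1 was the 1 gene called for this difference among 177 list genes and members, beside 0.545% of all genes.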

How the results depend on the processing

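On RAS the calls of BMP2, INHBA, TGFB1, THBS1 and CCN2 kept their direction and their side of the threshold in 140 of 140 alternatives. Over all genes named, 2755 of 2982 values under an alternative did so, 140 lost a call, 51 gained one and 36 changed sign, 0 of them called either way. The cause was not tested.

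Sign changes on RAS were TGFB2 at -0.35, TGFB3 at 0.27 and SMAD7 at -0.088 with siRNA number 4 alone, BMP4 at -0.19 with number 2 alone, TGFB3 at 0.078 and SMAD7 at -0.086 with VM libraries, and TGFB3 at 0.055 with the replicate block. On knockdown they were TGFB3 at 0.058, INHBA at -0.037 and CCN2 at 0.046 with number 2 alone, BMP4 at -0.21 with number 4 alone, INHBA at -0.093 and CCN2 at 0.039 with VM libraries, BMP4 at -0.0094 and CCN2 at 0.0018 with V or VM as a covariate, CCN2 at 0.0087 with no filter and 0.0027 with the replicate block. Against DMSO siNT they were TGFB3 at 0.074 (VM libraries) and 0.089 (number 4) and LTBP2 at 0.099 (number 4), and LTBP2 in the difference between numbers was 0.75 with VM libraries. The intronic difference of TGFB1 on knockdown, 0.325 per 1e6 library counts, was -52.3 per 1e6 intronic repeat counts. Leaving out 1 library gave -0.067 to 0.17 for TGFB2 and -0.10 to 0.47 for BMP4 on RAS, -0.028 to 0.20 for BMP4 and -0.062 to 0.0089 for CCN2 on knockdown, -0.013 to 0.56 for BMP4 against DMSO siNT, and -0.39 to 0.36 for LTBP2 between numbers.

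Knockdown called 1198 genes and 1 member with number 4 alone, and 1 to 4 members with 1 library left out. For 4OHT siSMARCA4 against DMSO siNT the alternatives called 5 to 7 members. The replicate block, which removes differences between tags, called 2 members on knockdown (without BMP2) and 6 on RAS (with LTBP2), and 4444 and 9429 genes, within 1.5 times the main counts. It changed no other member's call on these steps. Among other genes reported, it ended the knockdown calls of INHBE (-1.07), SKIL (0.48), SKI (-0.36), CHRDL1 (-2.19) and THBS1-IT1 (-0.72), at adjusted p of 0.0784, 0.0576, 0.051, 0.108 and 0.0511. The difference between numbers called 594 genes in DESeq2 and 8 to 766 with 1 library left out. siNT 4 against 2 called 1584 genes and 2 members in DESeq2, 1959 and 3 with no filter, and 24 to 2110 and 0 to 1 with 1 library left out. siSMARCA4 4 against 2 called 419 genes in DESeq2, 917 and 2 members with no filter, and 3 to 2023 and 0 to 1 with 1 left out. siSMARCA4 V against VM called 1195 and 1 in DESeq2, 1449 and 1 with no filter, and 138 to 1680 and 0 to 1. DMSO siNT V against VM called 484 and 2 in DESeq2, 746 and 4 with no filter, and 0 to 193 and 0 to 2. Of the intronic tests 7 passed relative to all intronic repeat counts and 0 to 5 with 1 library left out. Depth limits genes with few counts, such as CHRDL1, BMP7, INHBE and RGMA, and the intronic counts.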
